A study of Mus musculus with 4 samples.

Results

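The genes described here are 35 members of the endoplasmic reticulum (ER) chaperone system and of the integrated stress response, given as a list of names. Each was measured by the probe sets that the array annotation gives to that gene alone, and the probe set with the highest mean over the 4 libraries stood for the gene. In this way 34 of the 35 were found, among 18193 genes with such a probe set on the whole array; Eif2s1, which encodes the alpha subunit of eIF2, had none and was not analysed here.

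RNA was measured on Affymetrix 3' expression arrays in 4 libraries of BA/F3, an established mouse line that grows on interleukin 3. By title, source name and genotype, 2 libraries came from cells with an inducible human ETV6-RUNX1 (TEL-AML1) gene, the fusion transcription factor of a childhood leukemia, and 2 from control cells that lack it, which the series text calls empty vector lines. Every culture, control included, had received the inducer mifepristone at 32.5 pM for 16 h. The libraries are called fusion 1, fusion 2, control 1 and control 2 by their titles. The description field names fusion 1 a control and control 1 a fusion-expressing library, so "by description" sets control 1 and fusion 2, the described fusion libraries, against fusion 1 and control 2. Only the replicate 2 pair has labels that agree, and the members are compared under both labels. The series text calls the replicates independent without saying whether they were separate cultures or clones, so a p-value here reflects only how far these libraries lie apart, which may be technical. With 2 libraries against 2, an exact permutation test of 1 gene cannot go below a two-sided p of 0.333.

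As background, proteins that enter the ER are folded by chaperones such as BiP and by disulfide isomerases, and those that do not fold are sent back to the cytosol for degradation. When unfolded protein builds up, 3 sensors in the ER membrane respond. IRE1 splices the Xbp1 message, ATF6 is cut to release a transcription factor, and PERK phosphorylates eIF2, which slows translation but favours that of ATF4. PERK shares this last step with kinases that sense amino acid shortage, heme shortage and viral RNA, and the common output is the integrated stress response. Many chaperone genes carry the ER stress response element (ERSE) in their promoters, to which NF-Y and ATF6 or XBP1 bind, while ATF4 with a C/EBP partner binds a composite element (CARE).

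Windows of the member promoters that hold ERSE are shown first, because these genes are followed as a group below. RefSeq promoters of GRCm38.p6, from 250 bases before to 50 after the start, were listed for 29 of the 35 genes, as 32 promoters. ERSE was searched as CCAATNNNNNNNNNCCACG on both strands. It was found in 8 of the 32 promoters, each of a different gene, against 39 of all 32851 promoters, or 0.119%. The 9 windows below run 5′ to 3′ on the strand of the gene, and capitals mark both ends of the element. Where the element lies on the opposite strand, the capitals read CGTGG and then ATTGG.
Hspa5, chr2:34772005-34772063, plus strand: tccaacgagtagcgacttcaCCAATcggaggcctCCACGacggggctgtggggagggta
Calr, chr8:84847055-84847113, minus strand: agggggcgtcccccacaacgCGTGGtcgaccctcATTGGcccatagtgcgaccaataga
Hsp90b1, chr10:86705618-86705676, minus strand: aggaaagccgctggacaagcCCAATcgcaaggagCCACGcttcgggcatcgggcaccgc
Hsp90b1, chr10:86705513-86705571, minus strand: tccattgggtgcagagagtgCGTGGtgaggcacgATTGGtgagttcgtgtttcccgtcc
Canx, chr11:50325780-50325838, minus strand: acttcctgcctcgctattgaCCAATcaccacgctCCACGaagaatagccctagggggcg
Pdia6, chr12:17266471-17266529, plus strand: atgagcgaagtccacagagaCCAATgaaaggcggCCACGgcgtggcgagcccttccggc
Dnajc3, chr14:118937807-118937865, plus strand: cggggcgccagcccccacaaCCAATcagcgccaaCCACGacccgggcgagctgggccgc
Creld2, chr15:88819500-88819558, plus strand: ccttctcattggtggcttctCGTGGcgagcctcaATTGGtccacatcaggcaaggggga
Syvn1, chr19:6046512-6046570, plus strand: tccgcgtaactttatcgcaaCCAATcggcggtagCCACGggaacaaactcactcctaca

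The other motifs were rarer among the members. The ERSE-II element, searched as ATTGGNCCACG, lay in the promoter windows of Herpud1 and Dnajb11, against 0.0365% of all promoters, and in Dnajb11 it lay after the start. The UPRE core TGACGTG lay in the window of Hspa5 only, against 2.01%. The CARE, searched as TGATGNAA, lay in 5 member promoters, those of Chac1, Trib3, Asns, Herpud1 and Vldlr, against 3.97% of all promoters. In Trib3 it lay after the start. The window of Asns, asparagine synthetase, is shown because Asns is a classical ATF4 target that could be tested here. Capitals mark the fixed bases of the CARE.
Asns, chr6:7693210-7693252, minus strand: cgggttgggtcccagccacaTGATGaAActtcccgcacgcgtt
A match of letters is a description of the window and does not show that a factor binds there.

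Levels are log2 values, so a difference of 1 is a 2-fold difference, and 2.23 is the lowest value in every library. Of the 34 measured genes, 30 had a mean of at least 4 and were tested. The other 4 are members with low values in every library. Atf5, a transcription factor of the stress response, read between 3.25 and 3.70. Chac1, a glutathione-degrading enzyme, and Vldlr, a lipoprotein receptor, read the same value in all 4 libraries, 2.23 and 2.37. Cth, the cystathionine lyase that makes cysteine, read 3.46 in control 1 and 3.12 in fusion 2 but stood at the lowest value, 2.23, in fusion 1 and control 2. Chac1 and Vldlr, whose promoter windows hold the CARE, thus gave no signal above the array background in any library.

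**Figure D1:**
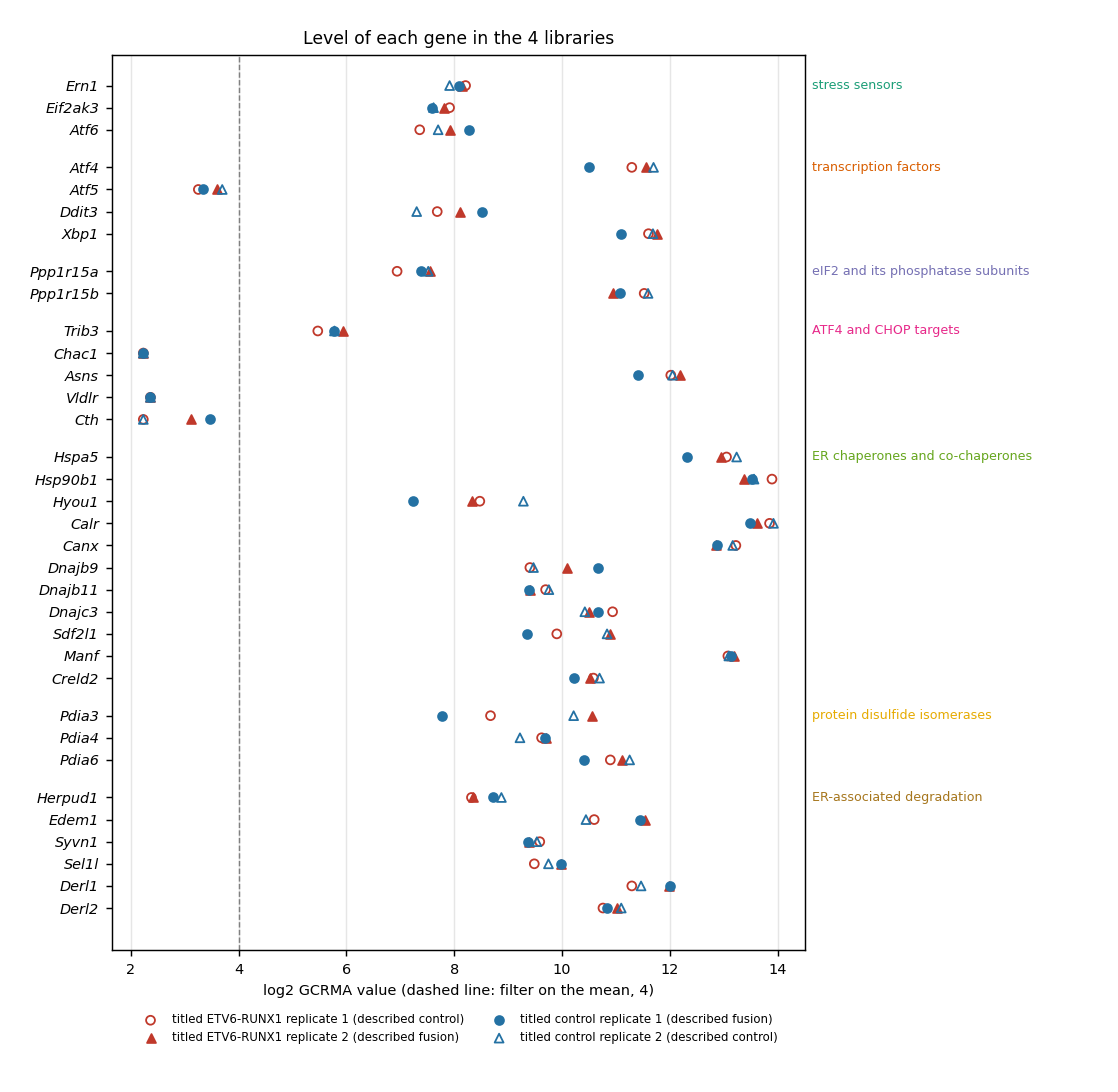
Log2 GCRMA value (x axis) of each of the 34 measured genes (rows, grouped by role) in the 4 libraries; colour is the title, circles are replicate 1, triangles replicate 2, and filled symbols are the libraries described as fusion-expressing. Edem1 and Derl1 show the filled symbols above the open ones, Calr and Canx show them below, and Chac1 and Vldlr lie at the floor.

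The libraries differed in other genes along the same lines. Of 16 early B cell genes on the array, 11 lay within 0.5 of the lowest value in their mean, among them Pax5, Ebf1, Rag1 and Il7r, while Cd79b and the interleukin 3 receptor chains were detected. All 6 plasma cell genes, markers of the secretory B lineage cell, and all 7 T and NK cell genes lay at that floor. Of the 3 tested early B cell genes 1 did not overlap by description, Cd72 at 0.95. Of the 4 tested erythroid and megakaryocytic genes 2 did not overlap, Klf1 at -2.37 and Epor at 0.90. Acta2, the 1 tested gene of the fibroblast and stroma list, differed by 1.39 without overlap. The share of all probe sets was 50.4%. Of the mast cell and basophil genes 6 of 13 were tested, and all 6 were higher in the described fusion libraries, with a median difference of 2.87. Of these 6, 4 did not overlap between the groups, against 50.4% of all probe sets. The same 4 differed at least 2-fold, against 9.23%. Fcer1g and Gata2 overlapped. The mean over the 13 was 6.38 in control 1 and 5.51 in fusion 2, against 4.46 in fusion 1 and 4.27 in control 2, and 5 of the 13, the protease genes Mcpt1, Mcpt2 and Mcpt4 among them, lay at the floor. Of the neutrophil, monocyte and macrophage genes 6 of 15 were tested. All 6 were lower by title, with a median of -1.11. By title 0 of the 6 were without overlap, against 10.7% of all probe sets. By description 3 were, Lyz1 and Lyz2 higher and Adgre1 lower, a share near the 50.4% of all probe sets. The mean over the 15 was 2.90 in fusion 1, 3.97 in fusion 2, 3.57 in control 1 and 4.36 in control 2. Of the 15, 8 lay at the floor, S100a8, S100a9 and Elane among them. The 3' minus 5' difference of the dap labelling spike was larger by 0.93 in the described fusion libraries, while that of Actb was nearly level, from 0.63 to 0.70. A further dap reading differed by 0.85, the thr readings by 0.33 and 0.59, lys by 0.14 and 0.09, and phe by 0.04 and -0.08. Most of the tested mast cell genes and the dap and thr spikes thus differed along the description grouping used below. So did Lyz1, Lyz2, Adgre1, Cd72, Klf1, Epor and Acta2, where 50.4% of all probe sets did not overlap. The part of these genes and spikes in the results was not tested. In RNA from whole cultures, fewer cells of a type and less RNA per cell cannot be told apart.

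Grouped by title, no stress response or chaperone gene passed the threshold. Among the 30 tested genes 0 passed an adjusted p of 0.05 in limma, as did 0 of all 17720 probe sets (0%), and every adjusted p was 1. At an unadjusted p under 0.05 there were 0 of 30 genes, against 0.282% of all probe sets. No gene differed at least 2-fold without overlap, against 0.429%. The median log2 difference was 0.06, with 19 genes higher and 11 lower in the fusion libraries, beside a median of -0.01 over all probe sets. Without control 1 the median became -0.07.

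In 3 of the 30 genes the groups by title did not overlap, against 10.7% of all probe sets. Herpud1, an ER membrane protein of the degradation complex, read 8.32 in fusion 1, 8.34 in fusion 2, 8.72 in control 1 and 8.87 in control 2. Both fusion libraries lay below both controls, by 0.41 in replicate 1 and 0.53 in replicate 2 (mean log2 difference -0.47, SE 0.24, limma adjusted p = 1). Eif2ak3, which encodes PERK, read 7.91 and 7.81 in the fusion and 7.58 and 7.62 in the control libraries, a difference of 0.26 (SE 0.24). Ern1, which encodes IRE1, differed by 0.17 (SE 0.25). Its fusion libraries, at 8.21 and 8.14, lay above the controls, at 8.09 and 7.91. For Ern1 and Eif2ak3 the difference was about the size of its SE.

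By role, most title differences were smaller than their SE. Those of Herpud1, Asns, Xbp1 and Eif2ak3 exceeded it. Among transcription factor genes Atf4 differed by 0.33 (SE 0.48), Xbp1 by 0.29 (SE 0.27) and Ddit3 by -0.01 (SE 0.52). Dimmer Xbp1 probe sets differed by 0.12 with overlap, and by 0.35 (SE 0.30) and 0.72 (SE 0.25) without overlap. The last, with a mean of 4.40, had an unadjusted limma p of 0.047. Of the 11 chaperones and co-chaperones 9 were higher, with a median of 0.09, from Dnajb9 at -0.32 (SE 0.55) to Sdf2l1 at 0.30 (SE 0.68). Hspa5 differed by 0.21, Hyou1 by 0.14, Hsp90b1 by 0.09 and both Calr and Canx by 0.02. These genes encode the main folding helpers of the ER, and none lay apart by title. All 3 disulfide isomerase genes were higher, Pdia3 by 0.62 (SE 1.15), Pdia4 by 0.21 (SE 0.28) and Pdia6 by 0.17. Of the 6 degradation genes 4 were lower, with Sel1l at -0.13, Derl1 at -0.09 and Derl2 at -0.08 beside Herpud1, while Edem1 differed by 0.12 (SE 0.54) and Syvn1 by 0.03. Ppp1r15a and Ppp1r15b differed by -0.21 and -0.11, Atf6 by -0.35 and Trib3 by -0.07.

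The replicates otherwise ran against each other. The difference of fusion minus control by title had opposite signs in replicate 1 and replicate 2 for 21 of 30 genes, against 72.9% of all probe sets. Edem1, the lectin-like protein that passes misfolded glycoproteins to degradation, differed by -0.85 in replicate 1 and by 1.10 in replicate 2. Hyou1, a large chaperone of the HSP70 family, differed by 1.23 and -0.95. The 9 genes with 1 sign in both replicates included Herpud1, Ern1, Eif2ak3, Xbp1, Asns and Pdia3.

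**Figure D2:**
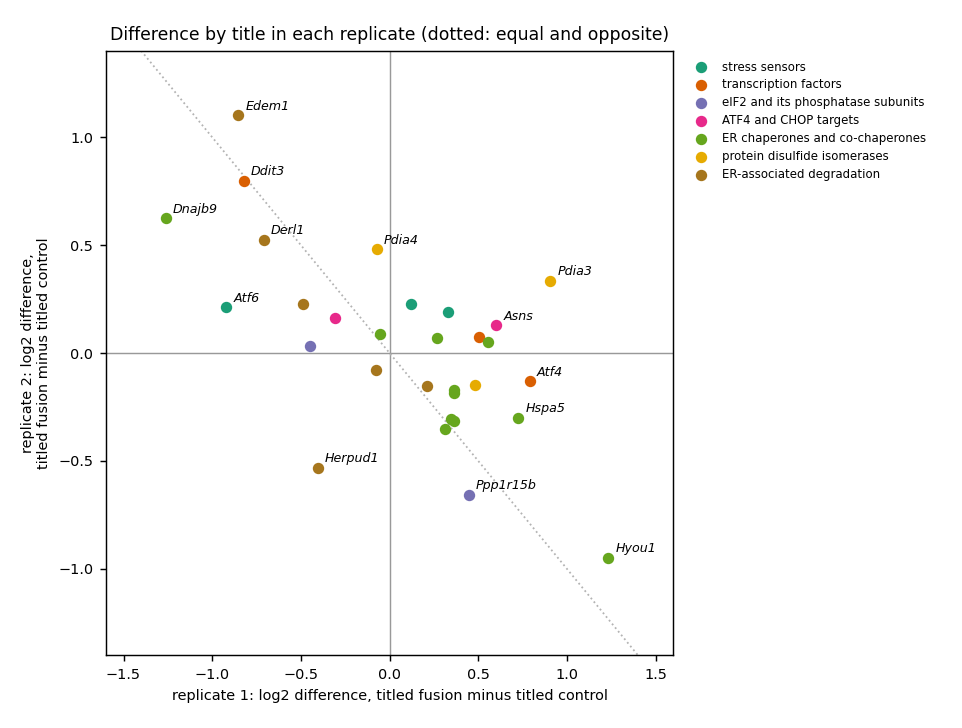
Log2 difference of the titled fusion minus the titled control library in replicate 1 (x axis) and replicate 2 (y axis) for the 30 tested genes, coloured by role; the dotted line marks equal and opposite differences. Of the 30 genes 21 have opposite signs on the axes, with Edem1 and Dnajb9 at one end and Hyou1 at the other.

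Grouped by description, the degradation factors Edem1 and Derl1, the co-chaperone Dnajb9 and the transcription factor gene Ddit3 were higher in the described fusion libraries, and most classical ER chaperones were lower. No gene passed the threshold: 0 of 30 had an adjusted p under 0.05 in limma, against 0.0113% of all probe sets, and the lowest among the members was 0.13. At an unadjusted p under 0.05 there were 7 of 30, 4 higher and 3 lower, against 19.7% of all probe sets. The groups failed to overlap in 17 of 30 genes, against 50.4% of all probe sets. Of these 8 were higher, against 25.3%, and 9 lower, against 25.1%. These shares lie near those of the whole array. The median difference over the 30 genes was -0.14, with 12 higher and 18 lower, beside -0.01 over all probe sets. It turned to 0.09 without control 1, the library with the lowest value in 13 of the 30 genes.

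**Figure D3:**
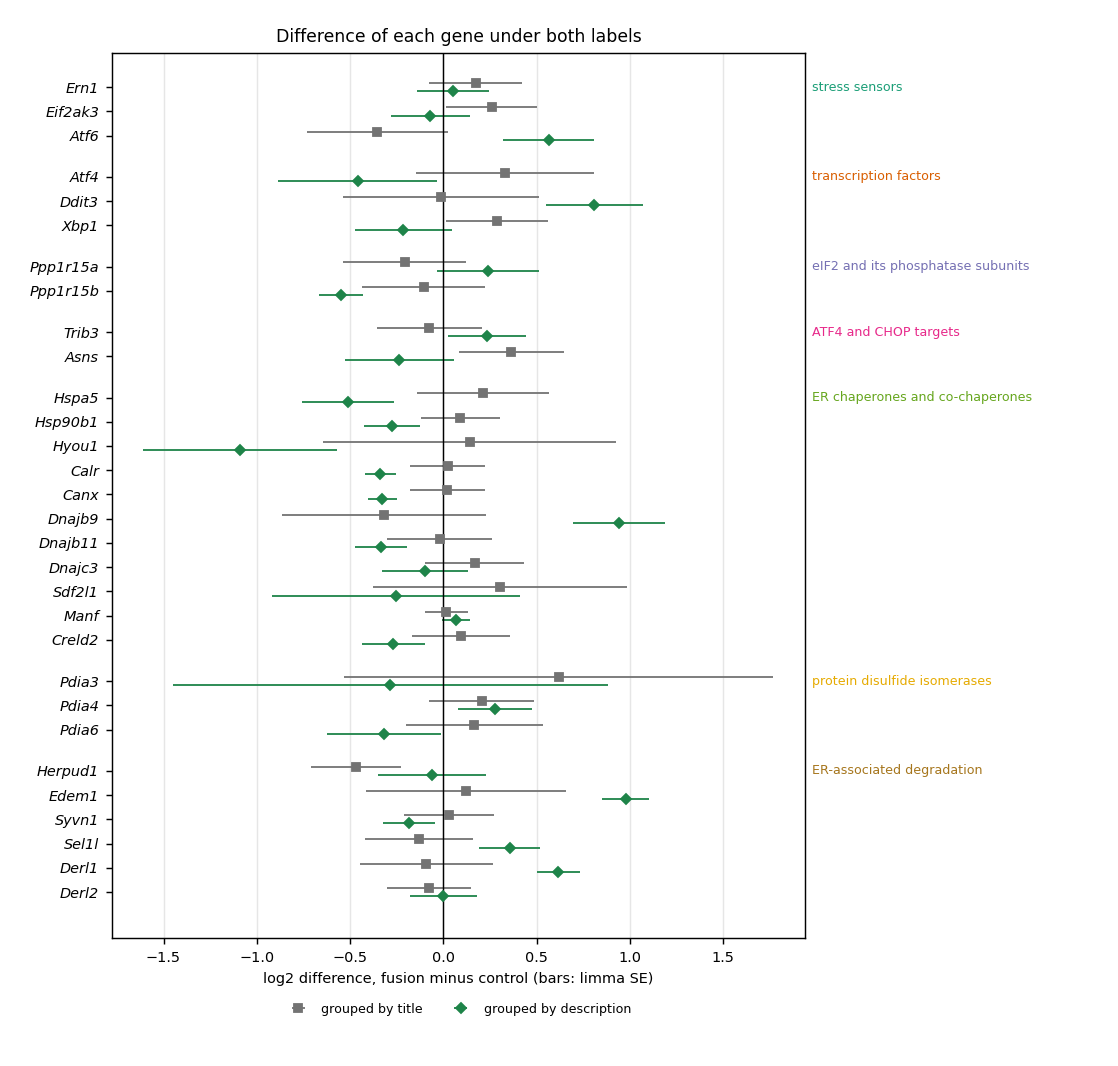
Log2 difference of fusion minus control for the 30 tested genes, by title (grey squares) and by description (green diamonds), with bars of 1 limma SE. By title all values lie between -0.47 and 0.62; by description they run from -1.09 for Hyou1 to 0.98 for Edem1.

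Of the brightest probe sets of the 3 sensors, only that of Atf6 was apart by description. Atf6 read 7.36 in fusion 1, 7.91 in fusion 2, 8.28 in control 1 and 7.70 in control 2, a difference of 0.57 (SE 0.24, limma adjusted p = 0.32). Its other 2 tested probe sets differed by -0.10, without overlap, and by -0.30, with overlap, so the probe sets of Atf6 disagree in direction. Ern1 differed by 0.05 (SE 0.19), and a dimmer Ern1 probe set, with a mean of 4.99, by -0.90 (SE 0.29) without overlap. Eif2ak3 differed by -0.07 (SE 0.21).

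Of the transcription factor genes, Ddit3 and Atf4 lay on opposite sides. Ddit3, which encodes CHOP, read 7.68 in fusion 1, 8.10 in fusion 2, 8.51 in control 1 and 7.30 in control 2. Both described fusion libraries were above both others, by 0.81 on average (SE 0.26, limma adjusted p = 0.23), or 1.75-fold. Atf4, whose protein drives Ddit3 in the PERK arm, read 10.50 in control 1 but 11.29, 11.56 and 11.69 in fusion 1, fusion 2 and control 2. Control 1 alone stood apart in this probe set, so the groups overlapped, and the difference was -0.46 (SE 0.43). In the second Atf4 probe set the groups did not overlap by description, with 10.63 in control 1 and 10.93 in fusion 2 against 11.00 in fusion 1 and 11.66 in control 2 (difference -0.55, SE 0.28). By title the 2 probe sets disagreed in sign, at 0.33 and -0.18. Xbp1 had the same shape, with 11.10 in control 1 and 11.60 to 11.76 in the other libraries, and a difference of -0.21 (SE 0.26). Dimmer Xbp1 probe sets differed by -0.43 (SE 0.23) without overlap, and by -0.31 and 0.04 with overlap. Its probe sets do not tell the spliced from the unspliced message here.

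The eIF2 phosphatase subunits also differed from each other. Ppp1r15b, the constitutive subunit CReP, read 11.52 in fusion 1 and 11.59 in control 2 but 10.94 in fusion 2 and 11.08 in control 1. Both described fusion libraries lay below both others (difference -0.55, SE 0.12, limma adjusted p = 0.17). Ppp1r15a, the stress-induced subunit GADD34, differed by 0.24 (SE 0.28) with overlapping groups.

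In their brightest probe sets the tested ATF4 and CHOP targets differed by about as much as their error. Asns read 11.41 in control 1 and between 12.01 and 12.18 in the other libraries, a difference of -0.24 (SE 0.29) by description and 0.36 (SE 0.28) by title. Trib3, a pseudokinase induced by CHOP, differed by 0.23 (SE 0.21) by description. In these probe sets the groups overlapped for both genes. A dimmer Trib3 probe set, with a mean of 5.01, differed by 0.56 (SE 0.30) by description without overlap.

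Of the 11 chaperones and co-chaperones, 9 were lower by description and 7 of these did not overlap between the groups. The other 2, Dnajb9 and Manf, were higher and did not overlap. Over all probe sets 25.1% were lower and 25.3% higher without overlap. The median of the 11 was -0.27. Calr, the lectin chaperone calreticulin, read 13.84 in fusion 1 and 13.92 in control 2, and 13.60 in fusion 2 and 13.48 in control 1. The gap was small but wider than the spread within either pair (difference -0.34, SE 0.08, limma adjusted p = 0.18). Canx, its membrane-bound relative calnexin, read 13.22 and 13.16 against 12.86 and 12.87, a difference of -0.33 (SE 0.08, limma adjusted p = 0.17). Calr and Canx were thus 1.26-fold and 1.25-fold lower in the described fusion libraries.

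Hspa5, which encodes BiP, the HSP70 of the ER and the classical marker of the unfolded protein response, read 13.05 in fusion 1, 12.94 in fusion 2, 12.32 in control 1 and 13.23 in control 2. The difference of -0.51 (SE 0.25, limma adjusted p = 0.35) rested mainly on control 1, since fusion 2 lay close to fusion 1. Hsp90b1, the HSP90 of the ER, differed by -0.27 (SE 0.15), and its dimmer probe set by -1.27 (SE 0.56). Hyou1, a nucleotide exchange factor for BiP, had the widest spread of the group. It read 7.24 in control 1, 8.33 in fusion 2, 8.47 in fusion 1 and 9.28 in control 2, a difference of -1.09 (SE 0.52, limma adjusted p = 0.35), and it was the 1 gene of 30 that differed at least 2-fold without overlap, against 9.23% of all probe sets. This count changed when any 1 library was left out. No share of all probe sets stands beside it for those fits, so nothing is read from it. Creld2, a secreted ER stress protein, differed by -0.27 (SE 0.17) and Dnajb11, a BiP co-chaperone, by -0.33 (SE 0.14).

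Dnajb9 lay on the other side from the J-domain co-chaperone Dnajb11. Dnajb9 encodes ERdj4, a J-domain protein that directs BiP to IRE1 and to degradation substrates. It read 10.66 in control 1 and 10.09 in fusion 2, against 9.40 in fusion 1 and 9.47 in control 2, a difference of 0.94 (SE 0.25, limma adjusted p = 0.19), or 1.92-fold. Manf, a secreted neurotrophic factor kept in the ER with BiP, was nearly constant, between 13.07 and 13.18 in all 4 libraries. Its difference by description was 0.07 (SE 0.07), though without overlap. Dnajc3, a J-domain co-chaperone that was first known as an inhibitor of eIF2 kinases, differed by -0.10 (SE 0.23) with overlapping groups. Its dimmer probe sets were all higher, by 0.13 and 0.21 without overlap and by 0.12 and 0.03 with overlap.

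Pdia3 and Sdf2l1 were set apart by replicate number more than by either label. Pdia3, the disulfide isomerase that works with calnexin and calreticulin, read 8.67 in fusion 1 and 7.77 in control 1, but 10.55 in fusion 2 and 10.21 in control 2. Sdf2l1, a BiP partner, read 9.90 and 9.34 in the replicate 1 libraries and 10.88 and 10.83 in the replicate 2 libraries. The replicate 2 libraries were higher by 2.16 for Pdia3 and by 1.24 for Sdf2l1. The numbers 1 and 2 did not overlap in 9 of 30 genes, against 33.6% of all probe sets. Of the 9, 8 were higher in replicate 2, Atf4, Xbp1, Asns and Pdia6 among them. The share of all probe sets in that direction was not counted, so no direction is read from this. What the replicate number stands for is not given in the sources used here. By description Pdia3 differed by -0.28 (SE 1.17), Pdia6 by -0.32 (SE 0.31) and Pdia4 by 0.28 (SE 0.20), all isomerases of the thioredoxin family.

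The highest difference by description was that of the degradation factor Edem1. Edem1 read 11.45 in control 1 and 11.54 in fusion 2, against 10.59 in fusion 1 and 10.44 in control 2. The 2 pairs were narrow and their means differed by 0.98 (SE 0.13, limma adjusted p = 0.13), or 1.97-fold. A further Edem1 probe set differed by 1.30 (SE 0.19, limma adjusted p = 0.13). Derl1, a channel protein of the retrotranslocation complex, read 12 in control 1 and 11.99 in fusion 2, against 11.29 in fusion 1 and 11.46 in control 2, a difference of 0.62 (SE 0.12, limma adjusted p = 0.15), and its 4 probe sets differed by 0.43 to 0.75. Sel1l, the adaptor of the ubiquitin ligase HRD1, differed by 0.36 (SE 0.16), with 4 tested probe sets from 0.19 to 0.36. Syvn1, which encodes HRD1 itself, was lower, at -0.18 (SE 0.14), and Derl2, a paralogue of Derl1, differed by 0.00 (SE 0.18). Herpud1 differed by -0.06 (SE 0.29). The 6 degradation genes thus did not share 1 direction: 3 were higher without overlap, 1 was lower without overlap, and 2 overlapped, where 50.4% of all probe sets did not overlap.

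Of the 18 genes with several tested probe sets, 13 had 1 direction in all of them by description and 11 by title. The 5 that disagreed by description were Atf6, Derl2, Dnajc3, Ern1 and Xbp1. Probe sets of 1 gene can lie on different ends or splice forms of a message, and probe sets whose names end in _s_at or _x_at may also bind related transcripts. Without the latter, Hyou1 was read from another probe set and differed by -0.52.

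**Figure D4:**
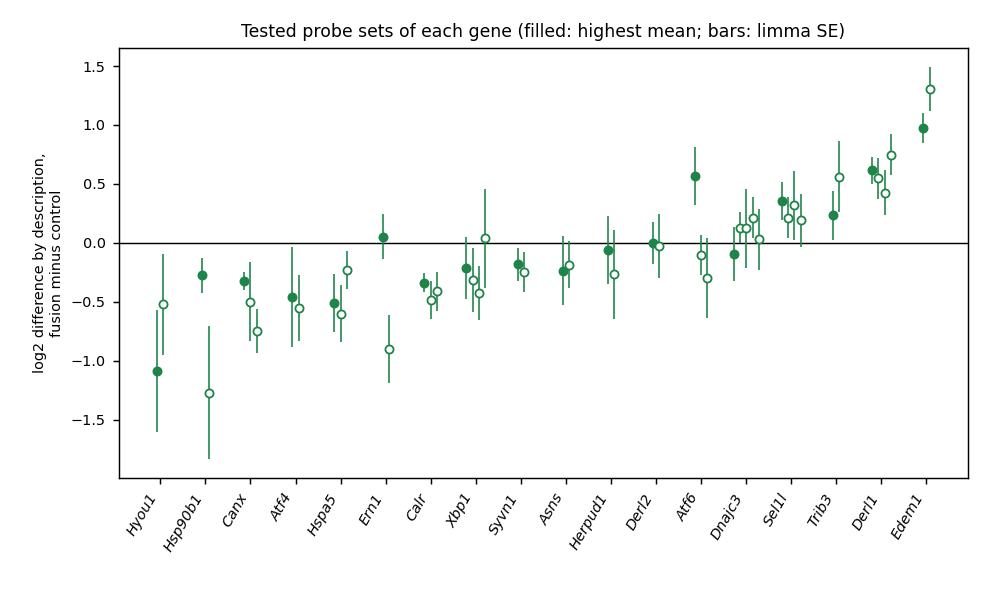
Log2 difference by description (y axis) of each tested probe set of the 18 genes with more than 1, with bars of 1 limma SE; filled points are the probe sets with the highest mean. All probe sets of Edem1, Derl1 and Sel1l lie above 0 and all of Calr, Canx and Hspa5 below it, while those of Ern1 and Atf6 fall on both sides.

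The 8 genes whose promoter windows hold an ERSE were Hspa5, Calr, Hsp90b1, Canx, Pdia6, Dnajc3, Creld2 and Syvn1. In their brightest probe sets all 8 were lower in the described fusion libraries, by -0.10 to -0.51 with a median of -0.30. Over all probe sets 48.4% were higher by description and 47.0% by title. Dnajc3 differed least, and its dimmer probe sets were all higher, by 0.03 to 0.21. The other 17 tested members with a listed promoter had a median of 0.00, with 9 higher and 8 lower. In the replicate 2 pair, where the labels agree, 7 of the 8 were lower in the fusion library, with a median of -0.18, and Dnajc3 differed by 0.07. In replicate 1 all 8 were higher in the library titled fusion, with a median of 0.36. By title they were therefore higher in 8 of 8, by 0.02 to 0.21, but in 7 of 8 after quantile normalization, where Calr differed by -0.01, and in 6 of 8 with the mean of all probe sets. By title 6 of 8 were lower without control 1 and 5 of 8 without fusion 1. By description 7 of 8 were lower without control 1, without fusion 1 and with the mean of all probe sets. The exception was Pdia6 without control 1 and Dnajc3 in the other cases. By description 8 of 8 were lower without either of the other libraries. No gene of the 8 passed the threshold. Outside the members, 5 tested genes with an ERSE in the window had a median of -0.15 by description, 3 lower and 2 higher. The difference between genes with and without the element was not tested.

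In the replicate 2 pair, 1 of the 30 genes differed at least 2-fold, against 11.4% of all probe sets, and 17 were higher and 13 lower in the fusion library, with a median of 0.06. That gene was Edem1, at 1.10. Ddit3 differed by 0.80, Ppp1r15b by -0.66, Dnajb9 by 0.62, Derl1 by 0.53 and Hyou1 by -0.95. With 1 library each, these differences have no replicate check, and both libraries also enter the title and description groups.

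The wider pathway showed no called gene either. Of 173 other genes of ER folding, translocation, glycosylation, degradation and eIF2 signalling on the array, 151 were tested, and 0 passed in limma by title or by description. At an unadjusted p under 0.05 there were 0 by title, against 0.282% of all probe sets, and 27 by description, against 19.7%. The median was -0.01 by title, with 67 higher and 84 lower, and -0.06 by description, with 63 higher and 88 lower. By description 73 of the 151 did not overlap, against 50.4% of all probe sets, 38 higher and 35 lower, against 25.3% and 25.1%. Of these 11 differed at least 2-fold, against 9.23%. These shares of the 151 lie near those of the whole array.

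By title the medians of the 8 lists lay between -0.09 and 0.06, the latter for other ATF4 targets. The lists differed more in their medians by description, to which the values that follow refer. Other ATF4 targets, mostly amino acid enzymes, transporters and tRNA synthetases, had a median of -0.33 over 26 genes, with 9 higher and 17 lower. Phgdh, the first enzyme of serine synthesis, differed by -1.26 (SE 0.50) and Psat1, the next, by -0.32 (SE 0.32). Other eIF2 kinases and eIF2 or eIF2B subunits had a median of -0.29 over 13 genes, with 10 lower, while the phosphatase catalytic subunits Ppp1ca and Ppp1cc in that list differed by 0.11 and 0.15. Other disulfide and peptidyl-prolyl enzymes had a median of 0.12 over 18 genes. There Ppib, cyclophilin B, differed by 0.49 (SE 0.07, limma adjusted p = 0.14) and Tmx1, a membrane thioredoxin, by -0.19 (SE 0.16).

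By description the translocon and signal peptidase list had a median of -0.10 over 19 genes, with Sec11c, a signal peptidase subunit, at 0.48 (SE 0.09) and Sec61b, a channel subunit, at -0.25 (SE 0.12). N-glycosylation and lectin cycle genes had a median of 0.05 over 18, with Rpn1 at 0.26 (SE 0.10) and Stt3a at -0.13 (SE 0.20), both of the oligosaccharyltransferase. Other degradation genes had a median of -0.05 over 27, with the ATPase gene Vcp at -0.19 (SE 0.35) and Selenok, a selenoprotein of the complex, at -0.05 (SE 0.10). Other ER co-chaperones had a median of -0.05 over 20, with Bcap31, an ER membrane sorting protein, at -0.07 (SE 0.12) and Sdf4, a calcium-binding protein of the Golgi, at 0.36 (SE 0.11). Other sensors and transcription factors had a median of 0.11 over 11, with Cebpb, a C/EBP factor, at 0.46 (SE 0.15) and Mbtps1, the protease that cuts ATF6, at 0.16 (SE 0.12).

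**Figure D5:**
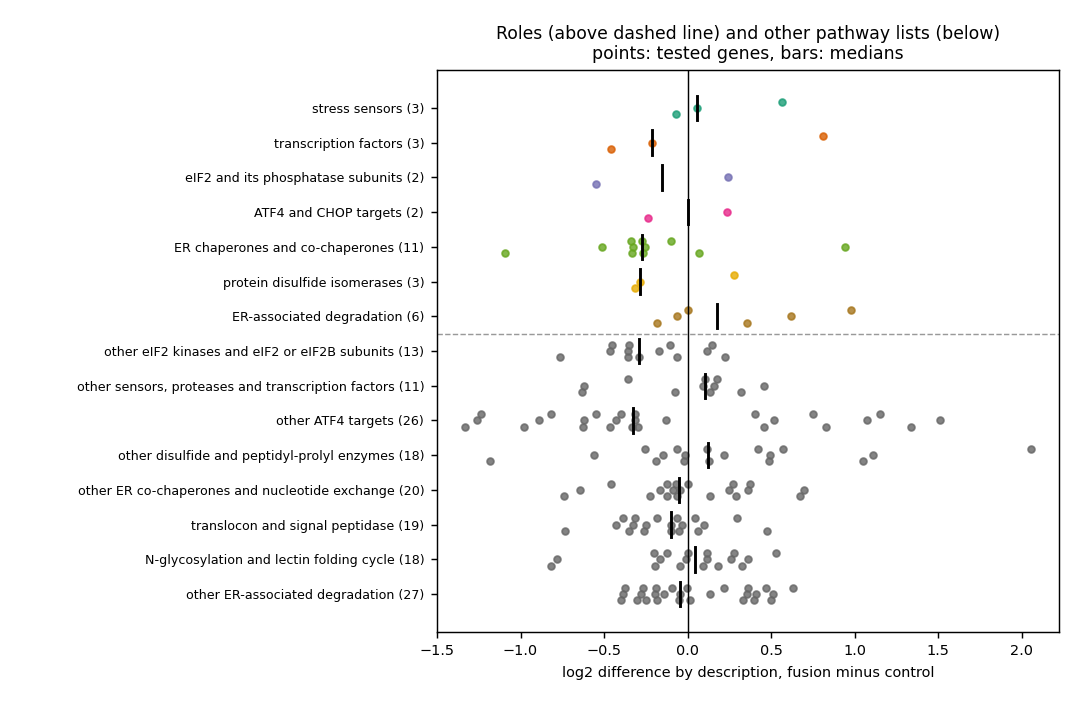
Log2 difference by description (x axis) of each tested gene, for the 7 roles of the members (coloured, above the dashed line) and the 8 lists of other pathway genes (grey, below); black bars are medians and the number of genes is in brackets. Points of nearly every list fall on both sides of 0, and the medians lie between -0.33 and 0.18.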

How the data were processed

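Values were used as deposited by the authors, on a log2 scale: 1 value for each of 45101 probe sets in 4 libraries. The submitters' processing notes name GCRMA 2.28.0. The scale was read from the values, 2.23 to 16.3, and differences near that floor are compressed. Other steps by the authors are not stated in the labels. There is no read depth, so precision rests on the 4 libraries. The protocols describe total RNA, whereas titles and design text speak of chromatin immunoprecipitation, so values were treated as RNA.

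The 64 control probe sets were left out, and the 17720 with a mean of at least 4 were fitted with limma 3.58.1 in R 4.3.3 (lmFit, eBayes with trend, two-sided, 2 residual degrees of freedom, Benjamini-Hochberg adjustment over all of them, threshold 0.05), by title and by description. The fit was tested on simulated data. Members and lists were chosen with earlier results of these data known. All members are named; other pathway genes named are the brightest 2 of each list, and other genes were chosen after their values were seen. Promoter sequences are RefSeq's, build GRCm38.p6. Alternatives covered the filter, normalization, floor, trend, probe set choice, replicate block and leaving out each library.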

Additional observations from a re-analysis of the deposited data

How the results depend on the processing

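The count of members past an adjusted p of 0.05 was 0 under every alternative run, by title and by description. By description the lowest adjusted p of a member ran from 0.062 with the replicate block to 0.48 without control 1. The labels do not say that a replicate number marks a shared culture or day, and with 2 numbers the data do not settle it. Deviations of same-numbered libraries correlated at -0.20 by title and 0.59 by description. The replicate block gave 0 calls in both, as did the crossed pairing by title, which was added after the data were seen. Members at least 2-fold apart without overlap by description numbered 1, against 9.23% of all probe sets. There were 2 without the filter, where Cth is counted against the floor. There were 0 without probe sets ending in _s_at or _x_at, an alternative also added later. The share of all probe sets under these alternatives is not given, so the counts are not compared. Leaving out 1 library gave 0 to 5 by description and 0 to 3 by title, where the lone library is assumed to vary like the others. The medians moved by less than the spread between replicates, within -0.07 to 0.13 by title and -0.18 to 0.09 by description. Of 658 member values under alternatives, 19 moved by more than that spread; the signs of 14 of 30 genes by title and 7 by description changed without control 1. The cause was not tested.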
